A study of Mus musculus with 99 samples.

Results

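The comparison described here set the cortex of Grn knockout mice against the cortex of wild-type mice at 9 months of age, with 3 arrays of 3 animals on each side. Its 6 arrays were chosen by their labels for region, genotype and age from the 99 arrays of the series, 35 of which were of cortex. KO animals carried no intact Grn allele (-/-), Het animals 1 (-/+) and WT animals 2 (+/+), and the labels name no treatment. For strain and for how the allele was deleted, the sources used here give nothing. The 3 Het arrays of cortex at 9 months, the KO and WT cortex at 2 months (6 and 6 arrays) and 6 months (3 and 3), and the KO and WT hippocampus and cerebellum of the same 9-month animals (3 and 3 in each region) were used to place the comparison. Total RNA of each dissected region was hybridised to an Illumina MouseRef-8 array, on which beads with a fixed probe report the brightness of the bound, labelled RNA.

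Grn encodes progranulin, a secreted glycoprotein that is taken up into lysosomes through sortilin or prosaposin and is cut there into granulins. In the brain it is made mainly by microglia, the resident phagocytes, and by neurons. In people, heterozygous loss causes frontotemporal dementia and homozygous loss a lysosomal storage disease. Mice without progranulin are known for activation of microglia, for complement gene expression and for storage material in old age.

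The 2 genes that led the immune changes below, Lyz1 and Lyz2, are neighbouring copies of the lysozyme gene on chromosome 10. Both encode an enzyme that cuts bacterial cell walls. Their start-site regions are printed because the pair was higher together. These bases lie before the transcript, so their likeness does not show how separately probes read the 2 genes. Each sequence is the 250 bases before the gene's start in the RefSeq annotation of GRCm38.p6, 5′ to 3′ on the gene's own (minus) strand. Capitals mark the run next to the start that is identical in both.
Lyz2, chr10:117282273-117282522: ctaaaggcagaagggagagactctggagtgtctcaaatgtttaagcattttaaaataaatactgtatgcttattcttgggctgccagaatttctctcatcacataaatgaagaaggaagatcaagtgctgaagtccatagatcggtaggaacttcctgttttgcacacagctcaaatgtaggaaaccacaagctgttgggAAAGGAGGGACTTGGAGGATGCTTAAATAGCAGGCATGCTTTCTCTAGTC
Lyz1, chr10:117292869-117293118: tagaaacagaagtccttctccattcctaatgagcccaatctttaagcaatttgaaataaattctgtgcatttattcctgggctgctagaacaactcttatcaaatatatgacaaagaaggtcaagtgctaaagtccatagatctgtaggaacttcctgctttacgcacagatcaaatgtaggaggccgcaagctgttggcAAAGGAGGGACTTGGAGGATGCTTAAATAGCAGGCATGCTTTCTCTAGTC
The last 50 bases before the start were the same, and 205 of 260 aligned positions (78.8%) were identical over the whole window. The letters AGGAAG, the core that the myeloid factor PU.1 binds, were looked for on both strands and occurred 99 bases before the start on the opposite strand in both genes, and 137 bases before it in Lyz2. The same letters stood in 29.5% of 32851 RefSeq start-site windows of this length. They were chosen after the sequences were seen: the longer GAGGAAG, held by 10.6% of the windows, had been tried first and was in neither gene.

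The labels and the RNA were compared before the groups. The 3 WT and 3 Het arrays are labelled male, as are KO replicates 1 and 2, and KO replicate 3 is labelled female. KO replicate 2 went against its label: Xist, which is transcribed from the inactive X chromosome of females, was at a log2 intensity of 9.68 in it and 9.36 in KO replicate 3, against 7.10 to 7.27 in the other 7 arrays. The Y-linked Eif2s3y was at 6.80 and 6.89 in these 2 KO arrays and at 9.01 to 10.04 in the others. The hippocampus and cerebellum arrays of the same animal showed the female pattern too, and these 3 arrays were the only ones of the 99 that did not match their label. By its RNA the KO group therefore held 1 male and 2 females against 3 WT males, and the main count of probes is also given without KO replicate 2 and with sex taken from these genes. For the gene lists described in detail, the values without KO replicate 2 are given.

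Cortical markers were present in all 9 arrays, with Tbr1, a transcription factor of deep-layer projection neurons, at 9.85 to 10.73. The cerebellar Purkinje cell gene Pcp2 was at 6.91 to 8.44, against a median of 12.79 in the cerebellum arrays. The thalamic genes Tcf7l2 and Prkcd were highest in KO replicate 2 (10.19 and 10.03), WT replicate 2 (10.10 and 9.96) and Het replicate 1 (10.18 and 10.18). The other arrays lay between 8.44 and 9.41 for Tcf7l2 and between 8.26 and 9.08 for Prkcd. By these genes each genotype held 1 array with more RNA of this kind. Slc17a6, another thalamic marker, was highest in the same arrays (12.16, 12.06 and 12.11), with Het replicate 2 at 11.86. Rgs16 did not follow, at 8.04, 7.95 and 8.01 in these arrays and highest in KO replicate 1 (8.20). Hba-a1, the α-globin gene of red cells, was at 12.24 in WT replicate 3 and at 7.84 to 9.65 in the other 8 arrays. Median intensities of the 9 arrays ran from 245 to 352, and the lowest correlation of any array with another of the 9 was 0.978. No slide carried both KO and WT cortex of 9 months, so within-slide values of the comparison could not be had. KO replicates 2 and 3 shared a slide, WT replicates 2 and 3 shared another, and KO replicate 1 lay with Het replicate 3.

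**Figure D1:**
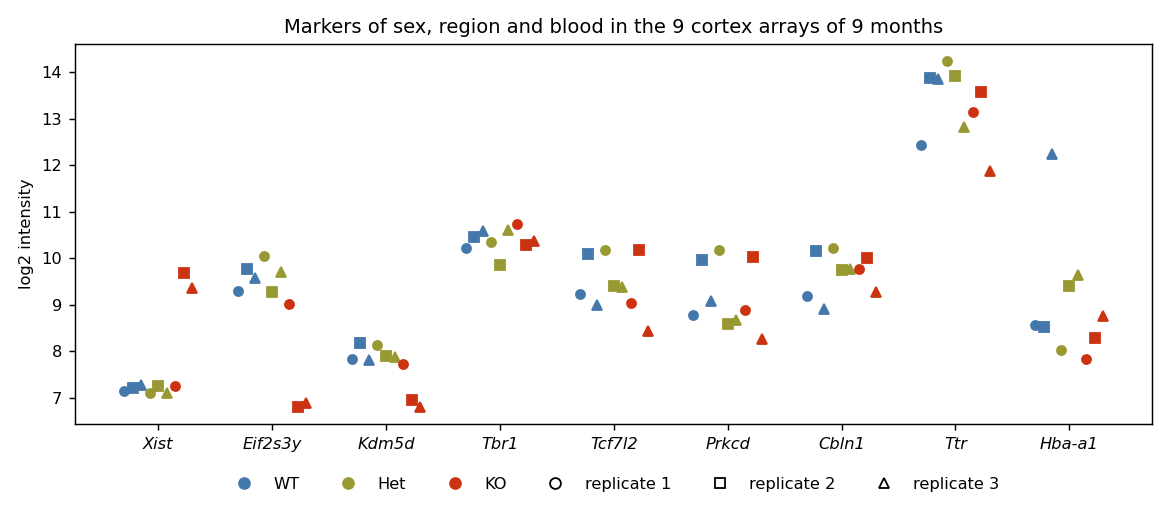
Log2 intensity of markers of sex (Xist, Eif2s3y, Kdm5d), cortex (Tbr1), thalamus (Tcf7l2, Prkcd), cerebellum (Cbln1), choroid plexus (Ttr) and blood (Hba-a1) in the 9 cortex arrays of 9 months; colours stand for genotypes and shapes for replicates. KO replicate 2, labelled male, lies with the female KO replicate 3 for Xist (9.68 and 9.36), and WT replicate 3 stands apart for Hba-a1 (12.24).

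Grn itself gave the first check of the genotypes. Its log2 intensity was 9.48, 8.91 and 9.33 in the WT arrays, 7.80, 8.67 and 8.21 in the Het arrays and 6.75, 6.63 and 6.87 in the KO arrays. The 3 groups did not overlap and stood in the order of the number of intact alleles. The KO values lay among the dimmest of the array, with 0.37% to 15.2% of all probes dimmer than Grn, against 78.5% to 84.4% in WT. The difference was -2.50 ± 0.16 (SE, limma, adjusted p = 3.2e-12) on the log2 scale, a 5.64-fold lower intensity in KO. Het was 2.02-fold lower than WT (-1.02 ± 0.16, limma, adjusted p = 0.0048). Background light is part of these intensities, and with it modelled and removed the KO difference was -3.18. Whether the probe lies in the deleted stretch was not tested.

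Of 12848 probes tested, 7 (0.0545%) differed between KO and WT at an adjusted p under 0.05, 4 higher (0.0311%) and 3 lower (0.0233%) in KO. The 4 higher probes read Lsm12, Lyz2, Lyz1 and C4b, and the 3 lower ones Grn, Krt12 and Fam171a2. At an unadjusted p under 0.05 there were 221 probes (1.72%), 134 higher (1.04%) and 87 lower (0.677%). All 3 KO arrays lay above all 3 WT arrays for 2.89% of the probes and below them for 2.41%. With each of 8982 genes read by its brightest probe, 2 were higher (0.0223%) and 3 lower (0.0334%) past the threshold, and the KO arrays lay wholly above WT for 3.28% and wholly below for 2.28%. The count of 7 rested on single arrays: Grn alone passed without KO replicate 2, and again without WT replicate 3, while 4 probes passed without KO replicate 1, 4 without WT replicate 2, 5 without WT replicate 1 and 9 without KO replicate 3. In limma fits of the 6 arrays alone or of the 9 arrays of 9 months alone 0 higher probes passed, with 192 and 195 probes at an unadjusted p under 0.05 in either direction, and the Lsm12, Lyz1, Lyz2 and C4b calls were lost. With each array's sex taken from its sex genes, 5 probes passed. These were Grn, Lsm12, Lyz2, Lyz1 and Krt12, while C4b and Fam171a2 had adjusted p = 0.065 and 0.055 (limma). With every array scaled to 1 median in place of quantile normalization, 13 probes passed, 11 higher and 2 lower.

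**Figure D2:**
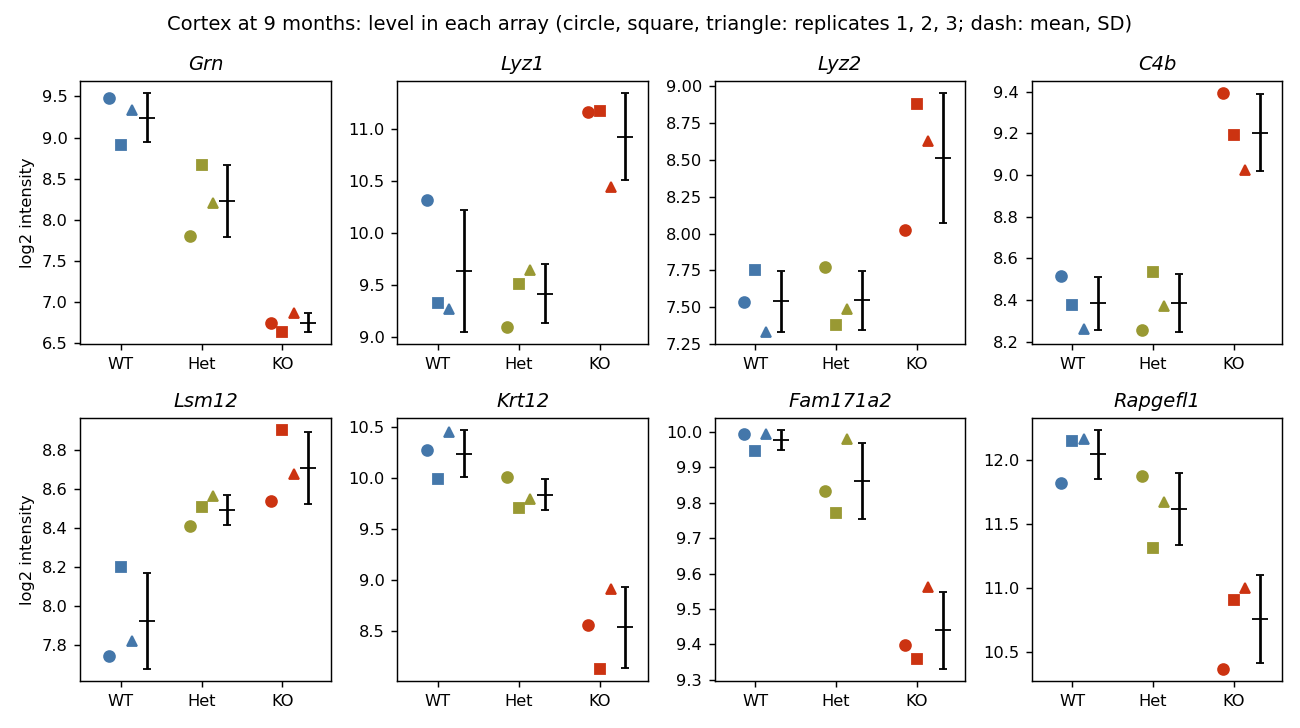
Log2 intensity of the 7 genes that differed between KO and WT and of Rapgefl1, which did not pass (adjusted p = 0.059), in each cortex array of 9 months; shapes stand for replicates, and the dash and bar give the mean and SD of each genotype. The KO and WT arrays do not overlap in any of the 8 panels, and Het lies with WT for Lyz1, Lyz2 and C4b and near KO for Lsm12.

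Lysozyme showed the largest rise. Lyz1 was at 10.32, 9.32 and 9.26 in WT, 9.09, 9.51 and 9.64 in Het and 11.17, 11.18 and 10.45 in KO. The lowest KO array lay just above WT replicate 1, the brightest of the WT arrays. The difference was 1.34 ± 0.25 (SE, limma, adjusted p = 0.020), or 2.53-fold, with a range of 1.15 to 1.68 when single arrays were left out.

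Lyz2, the lysozyme copy of macrophages and microglia, was read by 2 tested probes. The one that passed was at 7.54, 7.75 and 7.33 in WT, 7.77, 7.38 and 7.49 in Het and 8.02, 8.88 and 8.63 in KO, a rise of 0.95 ± 0.16 (SE, limma, adjusted p = 0.0085). KO replicate 1 lay closest to the WT arrays. The brighter probe had a difference of 1.12 ± 0.27 (SE, limma) but did not pass (adjusted p = 0.28), with 9.16, 8.35 and 8.57 in WT and 9.96, 10.14 and 9.09 in KO. There KO replicate 3 fell within the WT range. Whether a probe of 1 lysozyme gene also binds RNA of the other was not tested, because probe sequences were not used here.

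C4b encodes complement component 4, the protein whose fragments tag surfaces for removal by phagocytes, and in the brain astrocytes and microglia make it. It was at 8.51, 8.38 and 8.26 in WT, 8.26, 8.54 and 8.37 in Het and 9.39, 9.19 and 9.02 in KO. The KO arrays stood together, well apart from all 6 others. The rise was 0.80 ± 0.16 (SE, limma, adjusted p = 0.028), or 1.74-fold.

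Like the other gene lists, the complement list was chosen with earlier results of these data known, so its counts are no independent support. It held 7 tested genes of 16 on the array, and C4b was the 1 that passed. All 7 had differences above 0, with a median of 0.32 against 0.005 over all 8982 tested genes, each gene by its brightest probe, of which 51.7% were above 0. At an unadjusted p under 0.05, 3 of the 7 were higher and 0 lower, where 1.14% and 0.646% of all genes were. The median was 0.18 without KO replicate 2, 0.20 without WT replicate 2 and 0.50 without WT replicate 1, with 2, 1 and 5 members at an unadjusted p under 0.05.

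Beside C4b, the members at an unadjusted p under 0.05 were C1qa and C2. C1qa, a chain of the C1q recognition protein made by microglia, was at 8.62, 8.21 and 8.46 in WT and 8.58, 8.94 and 8.68 in KO (0.29 ± 0.12 SE). C2, the protease that joins C4b in the convertase, was at 8.34, 7.62 and 7.66 in WT and 8.41, 8.01 and 8.34 in KO (0.38 ± 0.17 SE). In both the WT and KO ranges overlapped, through WT replicate 1. C1qc differed by 0.33 ± 0.18 (SE) and did not pass either.

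Genes of activated and phagocytic microglia lay higher in KO as a list, although Lyz1 was the 1 member to pass by its brightest probe. This list, too, was chosen with earlier results of these data known. Of 26 listed genes 24 were on the array and 17 were tested, and all 17 had differences above 0, with a median of 0.30. Of these, 7 were higher at an unadjusted p under 0.05 and 0 lower, where 1.14% and 0.646% of all genes were. For 5 the 3 KO arrays lay above the 3 WT arrays, as they did for 3.28% of all genes. The mean level of the list per array was 9.37, 8.98 and 9.07 in WT, 9.02, 9.13 and 9.08 in Het and 9.51, 9.82 and 9.46 in KO. WT replicate 1 came closest to the KO arrays. Without KO replicate 2 the list's median was 0.25, with 6 members at an unadjusted p under 0.05, and it ran from 0.22 to 0.44 over the arrays left out in turn. In RNA of whole tissue, more cells of a type and more RNA per cell cannot be told apart.

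Gpnmb, a membrane glycoprotein of lipid-laden phagocytes, varied widely within the KO group. It was at 7.89, 7.67 and 7.65 in WT, 7.63, 7.59 and 7.83 in Het and 7.82, 10.07 and 8.87 in KO. KO replicate 1 lay inside the WT range while KO replicate 2 was far above it. The difference of 1.13 ± 0.30 (SE, limma) did not pass (adjusted p = 0.62), and it was 0.48 without KO replicate 2 and 1.70 without KO replicate 1, which alone of the arrays left out gave a call (adjusted p = 0.0010; 0.60 to 1.0 for the others).

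Tyrobp and Trem2 encode an adaptor and its receptor that together signal in microglia. Tyrobp was at 8.05, 7.78 and 7.79 in WT and 8.23, 8.62 and 8.29 in KO (0.51 ± 0.14 SE, adjusted p = 0.89, limma), with no overlap. Trem2 was at 8.70, 8.05 and 8.17 in WT and 8.71, 9.09 and 8.61 in KO (0.51 ± 0.15 SE, adjusted p = 1.0, limma). Its WT replicate 1 lay within the KO range. Cd33, an inhibitory sialic acid receptor of myeloid cells, was at 7.35, 7.16 and 7.24 in WT and 7.56, 7.73 and 7.45 in KO (0.34 ± 0.09 SE, adjusted p = 0.67, limma). The KO arrays lay above the WT arrays by little, close to the dim end of the tested probes.

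Surface genes of resting microglia had a median KO minus WT difference near that of all genes. Of 14 tested genes 7 had differences above 0 and the median was 0.006. At an unadjusted p under 0.05, 4 were higher and 0 lower, where 1.14% and 0.646% of all genes were. The 4 were Ctss, a cathepsin, Laptm5, a lysosomal membrane protein of blood-derived cells, Gpr34, a lysophospholipid receptor, and Fcrls, an Fc receptor-like protein (0.30 to 0.60). There was 1 without KO replicate 2, KO replicate 3 or WT replicate 3, and the median ran from 0.03 to 0.13 over the arrays left out in turn. For KO minus Het the list's median was 0.24, beside 0.34 for the activated list and 0.011 for all genes. Its median for Het minus WT was -0.15. Of the 12 lymphocyte genes on the array 0 were bright enough to be tested, and the 3 tested genes of border and blood-derived macrophages had a median of 0.026.

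Of 29 tested lysosomal enzymes 19 had differences above 0, with a median of 0.05, and 5 were higher and 0 lower at an unadjusted p under 0.05, where 1.14% and 0.646% of all genes were. None of them passed the adjusted threshold in limma. The 5 became 3 without KO replicate 2 or without WT replicate 2, and the median ran from 0.009 (without WT replicate 3) to 0.10 (without WT replicate 1). Ctsh, the aminopeptidase cathepsin H, came closest, at 8.19, 7.86 and 8.12 in WT, 7.98, 7.97 and 8.11 in Het and 8.50, 8.43 and 8.66 in KO (0.50 ± 0.13 SE, adjusted p = 0.64). Its KO arrays all lay above the 6 others. Gusb, β-glucuronidase, was at 8.47, 8.32 and 8.20 in WT and 8.72, 8.52 and 8.97 in KO (0.37 ± 0.13 SE), also without overlap. Ctss, Man2b1 (lysosomal α-mannosidase) and Ctsz (cathepsin Z) had differences of 0.60, 0.36 and 0.30.

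Of 21 tested genes of the lysosomal membrane and acidification, 14 had differences above 0, with a median of 0.09. At an unadjusted p under 0.05, where 1.14% of all genes were higher, 2 members were higher. They were Lamp2, a major membrane protein, and Ctns, the cystine transporter (0.31 ± 0.13 and 0.34 ± 0.15 SE). That number was 1 without KO replicate 2, WT replicate 2 or WT replicate 3, and the median was 0.03 without WT replicate 2. Progranulin's partners had small differences: Sort1, the sortilin gene, differed by 0.07 ± 0.09 (SE) and Psap, the prosaposin gene, by 0.02 ± 0.10. Of 19 autophagy genes 6 had differences above 0 and the median was -0.06, with 0 past an unadjusted p of 0.05 in either direction in limma.

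Of 12 tested interferon and antigen presentation genes, 11 had differences above 0, with a median of 0.16. Irf1, an interferon-induced transcription factor, was at 8.69, 8.45 and 8.39 in WT and 8.89, 8.75 and 8.78 in KO (0.33 ± 0.11 SE). B2m, the light chain of MHC class I, was at 11.97, 11.61 and 11.71 in WT and 12.13, 12.65 and 11.76 in KO (0.47 ± 0.21 SE). Irf1 did not overlap between the groups and B2m did. Together with Cd74 and H2-Ab1 of the class II pathway (0.54 and 0.44) these were the 4 higher at an unadjusted p under 0.05, as 1.14% of all genes were. The 4 became 1 without KO replicate 2, WT replicate 2 or WT replicate 3, with medians of 0.04, 0.13 and 0.10.

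Among astrocyte genes the reactive markers C4b and Gfap had the clearest differences. The 12 tested genes of astrocytes in general had a median of 0.07 with 0 at an unadjusted p under 0.05 in limma, and the 9 tested reactive astrocyte genes a median of 0.10, C4b being a member of that list too. The reactive median was -0.16 over the members left by the 75th percentile filter, 0.03 without KO replicate 1, 0.09 without KO replicate 2 and 0.16 without KO replicate 3. Gfap, the intermediate filament protein of reactive astrocytes, was at 8.80, 8.56 and 8.21 in WT, 8.84, 8.43 and 8.60 in Het and 9.53, 9.95 and 8.23 in KO. KO replicates 1 and 2 lay above all other arrays and KO replicate 3, labelled female, lay at the bottom of the WT range. The difference of 0.79 ± 0.22 (SE, limma) did not pass (adjusted p = 0.70). Without KO replicate 3 it was 1.22 and passed (adjusted p = 6.5e-05), and with any other array left out the adjusted p was 0.42 to 1.0.

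Neuronal, myelin and synaptic lists held no gene that passed. Of 15 tested neuron genes the median difference was -0.05, and of 12 myelin genes -0.01, with Mal, a myelin proteolipid, at -0.45 ± 0.18 (SE). Of 9 genes of the glutamatergic synapse 8 had differences below 0, with a median of -0.17 and 0 past an unadjusted p of 0.05 in limma. The list's mean level per array was 11.60, 11.55 and 11.64 in WT, 11.53, 11.26 and 11.63 in Het and 11.63, 11.52 and 11.14 in KO. Among the KO arrays only replicate 3 lay far below WT. The list's median was 0.01 for KO minus Het and -0.16 for Het minus WT. Immediate early genes, transcribed soon after neuronal activity, spread widely from array to array: Fos was at 8.08, 10.26 and 9.13 in WT and at 9.43, 9.61 and 10.64 in KO. The 2 ranges overlapped. The 8 tested choroid plexus genes all had differences below 0, with a median of -0.18, and the most abundant, Ttr, spanned 12.43 to 13.87 in WT and 11.88 to 13.58 in KO.

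**Figure D3:**
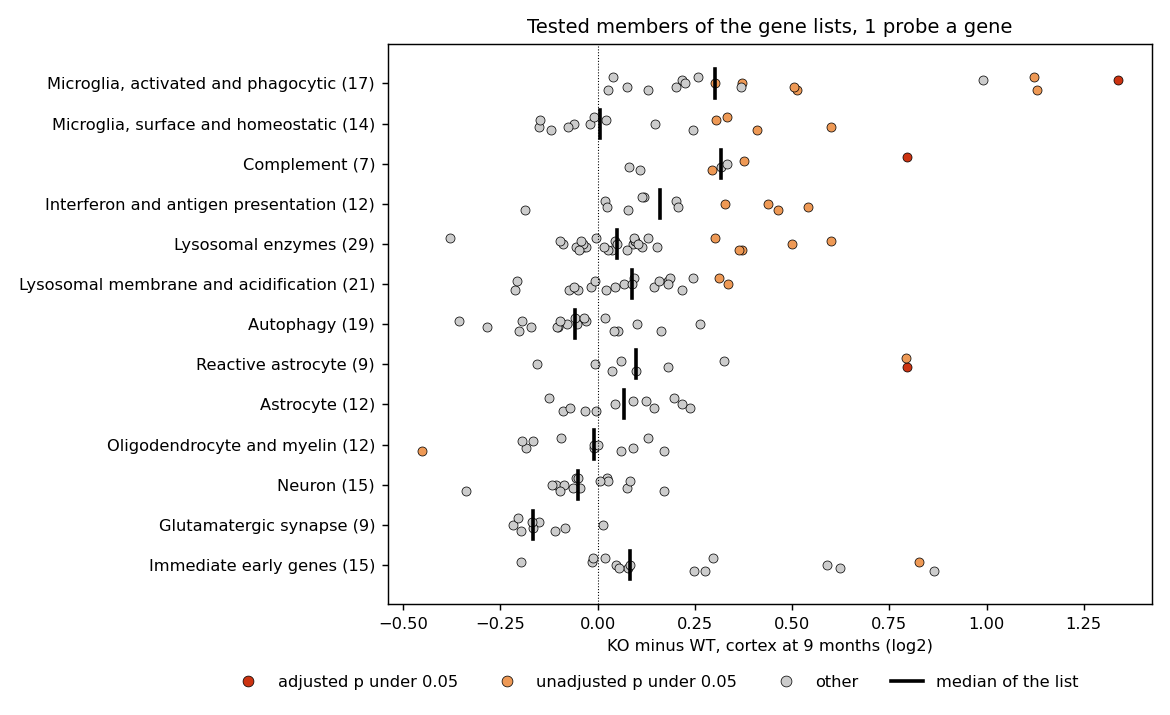
KO minus WT log2 difference of each tested member of 13 gene lists, 1 point a gene by its brightest probe, with the list's median as a black bar and the number of tested genes beside its name. The medians of the activated microglia list (0.30) and the complement list (0.32) lie right of 0 with every member above 0, and those of the neuron (-0.05) and glutamatergic synapse (-0.17) lists lie left of it.

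Among markers of neighbouring tissue, the thalamus, meninges and striatum lists had medians near 0, while that of the cerebellum list was higher. The 7 tested cerebellum markers all had differences above 0, with a median of 0.14 and Pcp2 highest (0.38). Of them 0 were at an unadjusted p under 0.05 in limma, and the median of KO minus Het was -0.03. The list's mean levels overlapped, at 7.98, 8.40 and 7.85 in the WT arrays and 8.38, 8.26 and 8.08 in the KO arrays. The part of these markers in the other results was not tested. The 9 thalamus genes had a median of 0.01, the 13 genes of meninges 0.006 and the 11 of striatum and hypothalamus 0.04. Spink8, a hippocampal protease inhibitor gene, was at 6.69, 6.89 and 7.75 in WT and 7.61, 8.37 and 8.27 in KO (0.94 ± 0.30 SE), with overlap, while the 4 other tested hippocampus markers had differences below 0. In the lists of inflammatory cytokines, endothelium, GABAergic neurons, oligodendrocyte precursors, cholesterol synthesis, mitochondria, heat shock, the circadian clock and frontotemporal dementia genes 0 members were at an unadjusted p under 0.05 in limma, and their medians ran from -0.02 to 0.10. Of 17 Wnt signalling genes 4 had differences above 0, with a median of -0.06. Yet 2 were higher and 0 lower at an unadjusted p under 0.05, where 1.14% and 0.646% of all genes were. The 2 were Fzd2, which also lies near Grn on chromosome 11, and Sfrp1. In both the KO arrays lay wholly above WT, as they did for 3.28% of all genes. The 2 tested blood genes had a median of -0.95 beside the high Hba-a1 of WT replicate 3.

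Of the genes next in order by p on the higher side, Mt1 and Me1 were no members of these lists. Mt1, a metal-binding metallothionein, was at 14.18, 13.84 and 14.18 in WT and 14.64, 14.45 and 14.36 in KO (0.42 ± 0.10 SE, adjusted p = 0.40, limma). Me1, cytosolic malic enzyme, was at 6.92, 7.12 and 6.79 in WT and 7.72, 8.11 and 8.63 in KO (1.21 ± 0.31 SE, adjusted p = 0.47, limma). Its brighter probe differed by -0.18 ± 0.30, so the 2 probes of Me1 disagreed in sign. On the lower side Use1, a SNARE protein of transport between Golgi and endoplasmic reticulum, and St6galnac4, a sialyltransferase, had differences of -0.35 ± 0.09 and -0.29 ± 0.10 (SE). Eif2s3y and Kdm5d of the Y chromosome differed by -1.29 and -0.58, with KO replicate 1 at 9.01 and 7.72 and the 2 KO arrays of female pattern at 6.80 to 6.95.

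A second group of changes lay on chromosome 11, which carries Grn. Apart from Grn itself, 3 of the 6 other genes that passed are on this chromosome: Lsm12, Fam171a2 and Krt12. Without Grn the chromosome held 775 of the 8982 tested genes. In the order of genes tested, Fam171a2 was the next after Grn on 1 side, Lsm12 the 7th on the other and Krt12 the 50th on that same side. The probes printed for these 3 were the ones with the smallest p.

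Fam171a2, a membrane protein gene, was at 9.99, 9.95 and 9.99 in WT, 9.83, 9.77 and 9.98 in Het and 9.40, 9.36 and 9.56 in KO. All KO arrays lay below all of the 6 others. It fell by 0.55 on the log2 scale (-0.55 ± 0.11 SE, limma, adjusted p = 0.028).

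Krt12, a keratin gene known from the corneal epithelium, was at 10.28, 9.99 and 10.45 in WT, 10.01, 9.71 and 9.79 in Het and 8.56, 8.13 and 8.91 in KO. KO was lower by 3.26-fold (-1.71 ± 0.31 SE, limma, adjusted p = 0.014). All KO arrays lay below all others, and after Grn this was the largest fall that passed. Only 1 probe reads this gene on the array, so no other probe bears on it.

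Lsm12, an RNA-binding protein gene, was at 7.75, 8.20 and 7.82 in WT, 8.41, 8.51 and 8.56 in Het and 8.54, 8.90 and 8.68 in KO by the probe that passed (0.78 ± 0.12 SE, limma, adjusted p = 0.0022). The Het arrays lay beside the KO arrays, above all WT arrays. The brightest Lsm12 probe differed by 0.19 ± 0.12 and the dimmest one tested by -0.01 ± 0.16 (SE), and neither passed, so the call rests on 1 of 3 tested probes.

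Rapgefl1, a relative of Rap exchange factors, was at 11.82, 12.14 and 12.17 in WT, 11.87, 11.31 and 11.67 in Het and 10.36, 10.91 and 10.999 in KO. The difference of -1.31 ± 0.27 (SE, limma) just missed the threshold (adjusted p = 0.059). The same probe passed in cortex at 2 months (-1.31 ± 0.19 SE, limma, adjusted p = 0.00023). It also passed in hippocampus at 9 months (-1.50 ± 0.31 SE, limma, adjusted p = 0.011). A second Rapgefl1 probe differed by -0.10 ± 0.21. Stac2 and Rdm1, also on chromosome 11, had differences of -0.46 ± 0.13 and -0.35 ± 0.11 (SE), with the KO arrays below the WT arrays in both.

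Among the 20 tested genes nearest to Grn, 10 on each side, 3 were higher and 1 lower at an unadjusted p under 0.05, that is 20%, against 1.68% of the 8206 tested genes of other chromosomes. These were Mpp3, a membrane scaffold protein (0.41 ± 0.13), Fzd2, a Wnt receptor (0.36 ± 0.11), Gfap and Fam171a2. Mpp3 was at 9.37, 9.40 and 9.39 in WT and 9.86, 9.55 and 9.98 in KO, and Fzd2 at 7.61, 7.53 and 7.80 in WT and 8.01, 8.16 and 7.84 in KO, without overlap in either. The other 16, from Slc25a39 beside Grn to Plcd3 at the far end, had differences between -0.19 and 0.27. Each gene is read by its brightest probe in these counts. Lsm12 is thus among the 16 with 0.19, although its probe that passed differed by 0.78. Of the 200 tested genes within 100 on each side 6% were at an unadjusted p under 0.05, and of all 775 tested on the chromosome 2.71%. Whether the KO and WT chromosomes differ in this stretch by strain was not tested, and the labels name no strain.

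**Figure D4:**
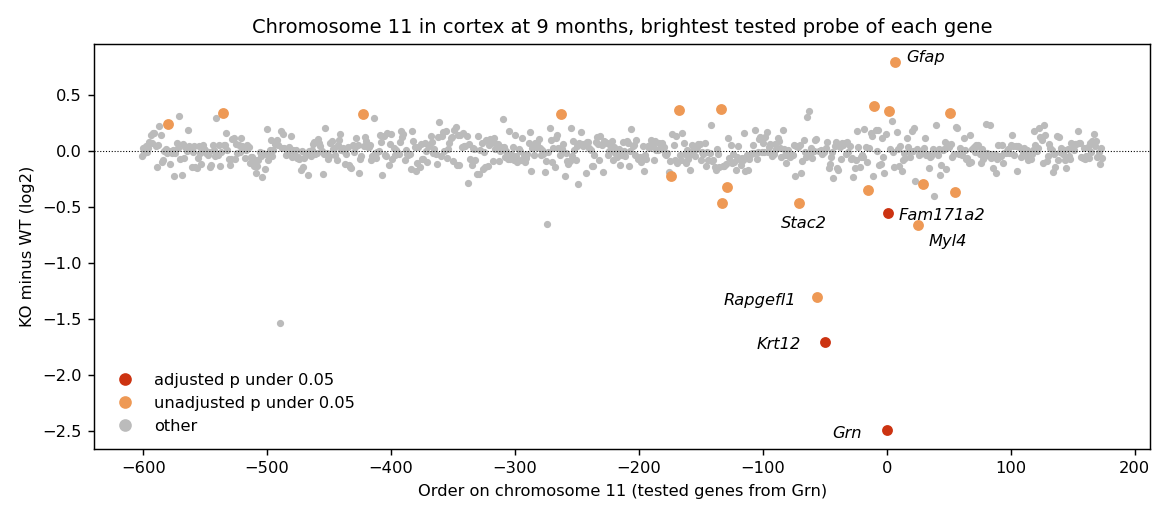
KO minus WT log2 difference in cortex at 9 months of the genes tested on chromosome 11, by their order from Grn, each by its brightest probe; red marks an adjusted and orange an unadjusted p under 0.05. Krt12 (-1.71) and Rapgefl1 (-1.31) lie on the same side of Grn, Fam171a2 (-0.55) beside it and Gfap (0.79) 7 tested genes away.

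The Het arrays were a second set of controls for the KO arrays. KO against Het gave 5 probes (0.0389%) at an adjusted p under 0.05, with Grn lower (0.00778%) and 4 probes higher (0.0311%), those of Lyz1, Lyz2 (both) and C4b. At an unadjusted p under 0.05 there were 475 (3.7%). The differences were 1.56 ± 0.25 for Lyz1, 0.94 ± 0.16 and 1.40 ± 0.27 for the Lyz2 probes and 0.79 ± 0.16 for C4b (SE, limma, adjusted p = 0.0040, 0.0097, 0.033 and 0.041). Het against WT gave 1 probe (0.00778%), Grn, with 2.39% of probes at an unadjusted p under 0.05. Lyz1, Lyz2 and C4b differed by -0.22, 0.008 and 0.003 between Het and WT. KO and Het contrasts share arrays with the first comparison and are no independent support for it. The Grn call between Het and WT was lost, with 0 probes left, without WT replicate 1 or 3 or Het replicate 1 or 3, and KO against Het gave 1 to 3 probes in 5 of 6 such fits.

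Lsm12, Krt12 and Fam171a2 did not pass in either Het contrast. Het was higher than WT by 0.57 ± 0.12 for Lsm12 (SE, limma, adjusted p = 0.28) and KO higher than Het by 0.21. For Krt12 and Fam171a2 the KO-to-Het differences were -1.30 and -0.44 and the Het-to-WT differences -0.40 and -0.12.

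The same contrast at the younger ages came from other animals. In cortex at 2 months KO replicate 2 had a mean of 10.77 for cerebellar markers. That is above 9.89, the midpoint between cortex and cerebellum arrays, and the array was kept. At this age 15 probes (0.117%) passed and 846 (6.58%) were at an unadjusted p under 0.05. Of the 15, 4 were among the 7 of 9 months: Grn, Lsm12, Krt12 and Fam171a2. These 4 are 57.1% of the 9-month list and 26.7% of the 2-month list. All 4 are on chromosome 11, which without Grn held 775 of the 8982 tested genes. At 6 months 1 probe (0.00778%) passed, Grn, with 1010 (7.86%) at an unadjusted p under 0.05. The WT cortex arrays of 6 months are all labelled female, while the KO arrays of that age are labelled with both sexes. All 7 had the same sign at 2 and at 6 months as at 9 months.

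Lyz1 had KO minus WT differences of 0.79 ± 0.18, 1.20 ± 0.26 and 1.34 ± 0.25 (SE) at 2, 6 and 9 months. In levels, the 6 KO arrays of 2 months spanned 9.57 to 10.15, the 3 of 6 months 10.09 to 10.57 and the 3 of 9 months 10.45 to 11.18. C4b had differences of 0.14 ± 0.11, 0.80 ± 0.16 and 0.80 ± 0.16, and Gfap 0.11 ± 0.15, 0.37 ± 0.22 and 0.79 ± 0.22. Krt12 had -1.52 ± 0.22, -1.50 ± 0.32 and -1.71 ± 0.31, and Rapgefl1 -1.31, -1.07 and -1.31. Lyz1, C4b and Gfap thus had their smallest difference at 2 months, and Krt12 and Rapgefl1 at 6 months, but no difference between ages passed its own test.

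For 9 against 2 months 0 of 12848 probes passed in limma and 225 (1.75%) were at an unadjusted p under 0.05, C4b among them (0.66 ± 0.19 SE). Without KO replicate 3, 1 probe passed. For 9 against 6 months 0 passed and 280 (2.18%) were at an unadjusted p under 0.05. The labelled sex of the WT arrays differed between these ages, all female at 6 months and all male at 9 months. The 2-month arrays lay on slides of their own, so age and slide cannot be told apart there.

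Hippocampus and cerebellum of the same 6 animals were compared in a fit of all 99 arrays. In hippocampus 6 probes (0.0467%) passed and 298 (2.32%) were at an unadjusted p under 0.05. Of the 6, 4 are among the 7 probes of cortex: Grn, Lyz1, Lsm12 and Krt12. The rest read Rapgefl1 (-1.50 ± 0.31 SE) and Lyz2 by its brighter probe (1.73 ± 0.33 SE, limma, adjusted p = 0.0049). The Lyz2 probe that passed in cortex had 0.84 ± 0.20 (SE, limma, adjusted p = 0.12) in hippocampus. In cerebellum 8 (0.0623%) passed and 203 (1.58%) were at an unadjusted p under 0.05, with Grn, Lyz1 and Lyz2 shared. All 7 had the same sign in all 3 regions. Since the regions came from the same animals, the sharing is not independent support.

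Gpnmb and Gfap passed in cerebellum, with differences of 1.93 ± 0.32 and 1.31 ± 0.27 (SE, limma, adjusted p = 0.00031 and 0.014), where cortex had 1.13 and 0.79 without passing. Lyz1 had 1.85 ± 0.35 in hippocampus and 1.80 ± 0.35 in cerebellum. C4b had differences of 0.80 in cortex, 0.82 in hippocampus and 0.79 in cerebellum. Krt12 had -1.95 ± 0.39 in hippocampus but -0.26 ± 0.40 in cerebellum, where its level was 7.10 ± 0.06 in WT and 6.97 ± 0.14 in KO (SD, n = 3). That level is near the dim end of the arrays.

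No difference between regions passed either. In limma, 0 probes passed for cortex against hippocampus, with 82 (0.638%) at an unadjusted p under 0.05, and 0 for cortex against cerebellum, with 131 (1.02%). Krt12 was among the latter, with a difference of -1.45 ± 0.54 (SE, limma, adjusted p = 1.0). The activated microglia list had medians of 0.14, 0.32 and 0.30 in cortex at 2, 6 and 9 months and of 0.38 and 0.50 in hippocampus and cerebellum at 9 months.

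**Figure D5:**
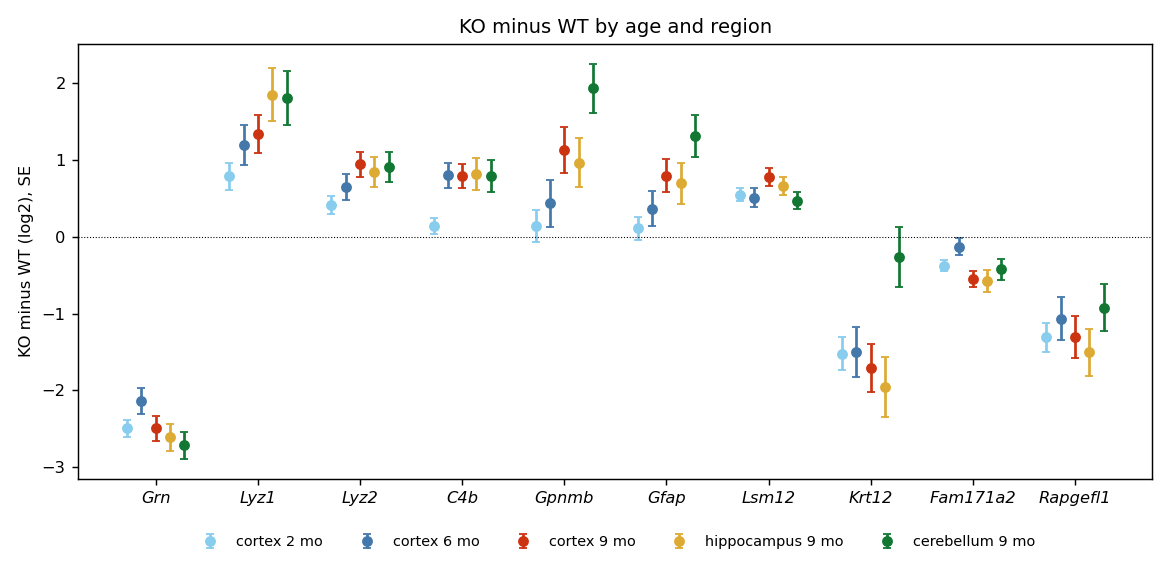
KO minus WT log2 difference with its SE for 10 genes in cortex at 2, 6 and 9 months and in hippocampus and cerebellum at 9 months. Grn lies between -2.71 and -2.14 throughout, Lyz1 between 0.79 and 1.85, and Krt12 near 0 in cerebellum (-0.26).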

How the data were processed

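The authors deposited bead-summary intensities on a linear scale for 25697 probes of each array, and a series matrix of log2 values. The deposited log2 values equalled the quantile-normalized log2 intensities with no background correction (largest difference 4.97e-14). The submitters' processing notes name BeadStudio and give no version of it.

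Here the log2 intensities of the 99 arrays were quantile-normalized together. A probe was tested when its mean over the cortex arrays lay above the median of all probes (7.28), which left 12848. Limma 3.58.1 (lmFit, eBayes with trend, R 4.3.3) was fitted to the 35 cortex arrays in 9 genotype-by-age groups with labelled sex as a covariate. Regions were compared over 99 arrays and 27 groups with the animal as a random block (statmod 1.5.0, correlation 0.0576). Tests were two-sided, with the Benjamini-Hochberg adjustment over every tested probe and 0.05 as the threshold. The fit was tested on simulated data.

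A single symbol was given to 23978 probes and 1719 had none. Named genes were Grn, the probes that passed, the next by p up to 10 each way, the genes nearest Grn and up to 4 members of each of 35 lists by p. With their values in view, Fos, Ttr, Sort1, Psap and Pcp2 were added. The members, lists and tests were chosen with earlier results of these data known. Each replicate is another animal by its label number, and the number of arrays limits the precision.

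The alternatives were another background correction, scaling, filter, sex coding, choice of arrays, slide or replicate blocks, array weights, and each array left out. Sex by sex genes and leaving out 2 cortex arrays of 2 months with cerebellar markers were added after the data were seen.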

Additional observations from a re-analysis of the deposited data

Results flagged for a closer look

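Eif2s3y, on the Y chromosome, was below the WT mean in all 3 KO cortex arrays of 9 months and above it in all 3 of 6 months, with a fitted difference there of 0.57. By their labels the WT cortex arrays of 6 months are all female, and the KO arrays of that age are of both sexes. At 6 months WT spanned 6.77 to 6.82 and KO 6.80 to 10.12. At 9 months the WT arrays are all labelled male, and 2 KO arrays had the female pattern. The difference between the ages was -1.86 ± 0.54 (SE, limma, adjusted p = 1.0).

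St6galnac4 was lower in the KO cortex at 9 months and higher in the KO cerebellum of the same animals, by 0.23, in 3 of 3 arrays each against the WT mean. Its other 2 tested probes differed by -0.18 and 0.03 in cortex. The difference between the regions was -0.52 ± 0.21 (SE, limma, adjusted p = 1.0).

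Krt12 stood apart in 1 of the 6 KO cortex arrays of 2 months, at 10.18 against a group mean of 9.11 ± 0.54 (SD, n = 6), close to the 10.22 of the lowest WT array of that age. Of the 14 groups searched in this way chance marks about 1 in 20.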

How the results depend on the processing

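The 7 probes that differed between KO and WT cortex at 9 months all passed again with normexp background correction, quantile normalization over the cortex arrays alone, the series-matrix values, slide as a random block, array weights and without the 2 cortex arrays of doubtful region. Numbers that passed elsewhere were 13 with median scaling (6 of the 7 shared), 3 with the 75th percentile filter (Lyz1, Krt12 and Fam171a2, the other 4 being untested there), 6 with no filter (Fam171a2 lost), 5 with the 18 arrays of 6 and 9 months (1 higher; Lyz1, Lyz2 and C4b lost, adjusted p = 0.25, 0.47 and 0.56, limma), 8 with no sex covariate, 3 with only the 6 arrays and 2 with only the 9 arrays (0 higher in both), 3 with all 99 arrays and 2 with all 99 arrays and slide as a fixed block. With slide as a fixed block in the cortex fit 0 passed and 1057 were at an unadjusted p under 0.05 (limma), and Me1 turned to -1.11. The slide of KO replicates 2 and 3 held no other cortex group. The median of the lysosomal enzymes turned to -0.011 with slide as a fixed block over 99 arrays, and that of the reactive astrocyte genes to -0.16 with the 75th percentile filter. The replicate block gave 4 (Grn, Lsm12, Lyz2, Krt12). KO and WT arrays of one number correlated at 0.40, 0.49 and 0.05 in their deviations, so the numbers were not taken to pair animals, although each KO array correlated best with its own number. Leaving out single arrays gave 1 to 9 probes for KO against WT, 1 to 7 for KO against Het, 0 to 2 for Het against WT and 0 to 1 for 9 against 2 months. KO against Het gave 3 with normexp and 3 with sex by sex genes. Normexp multiplied the named log2 differences by 1.00 to 1.34. The cause was not tested for the others.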
